A study of Homo sapiens with 10 samples.

Results

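NCI-H2087 is an established human lung adenocarcinoma cell line that carries the p53 substitution V157F. RNA was sequenced after transfection with an siRNA against p53 or with a control siRNA, with 2 libraries labelled sip53 and 2 labelled siCtrl. These 4 libraries, chosen by cell line and siRNA, are part of 10 in the series, and the others come from NCI-H441 (p53 R158L, 2 libraries with each siRNA) and NCI-H2110 (p53 R158P, 1 with each). V157F is present under both siRNAs in NCI-H2087, and since no mutation is found in more than 1 line, an effect of the mutation cannot be told apart from one of the line. The sample titles of the transfected cells speak of a knockout, whereas the protocol names siRNA. The siRNA dose, its sequence, the time after transfection and whether the replicates were separate cultures are not given in the labels. The p-values come from a fit of all 10 libraries. With libraries of the same replicate number treated as a pair, they measure how the siRNA change differs between pairs of a line. NCI-H2110 adds nothing to this spread. Without the pairing they measure the spread between libraries of the same line and siRNA. Since separate cultures are not stated, either spread may be technical.

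p53 is a transcription factor that restrains growth and answers DNA damage. Missense changes in its DNA-binding domain impair that activity, and the altered protein often accumulates and has been studied for effects of its own. In the lung, adenocarcinomas often keep traits of the alveolar type 2 cell, which makes surfactant, and many grow through the EGFR, RAS and ERK kinase cascade. Cells with ERK signalling express early genes such as the AP-1 factors and also feedback inhibitors that dampen the cascade. Urokinase, the collagenases and the integrins are known for pericellular proteolysis and for attachment to matrix.

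The 2 sip53 libraries held 25115074 and 25270810 counts, and the 2 siCtrl libraries held 18336672 and 25178500. After a filter on low counts 17978 of 57736 gene IDs were tested. Lung epithelial markers were present in every library, and 8 of 8 were measured. Their summed level, most of it from KRT18, was 9227 and 9065 CPM (counts per 1000000 counts of the library) in sip53 cells. In siCtrl cells it was 4411 and 4091 CPM. The neuroendocrine markers that were measured, 2 of 8, summed to 0.0427 and 0.0423 CPM in sip53 cells and to 0.309 and 0.151 CPM in siCtrl cells. CHGA, INSM1 and NEUROD1 were at 0 in all 4 libraries. The fibroblast markers that were measured, 4 of 9, summed to 14.7 and 19.6 CPM against 17.0 and 20.6 CPM, nearly all of it from COL1A1. The 2 sip53 libraries stood apart from each other in genes of amino acid synthesis. There replicate 2 lay above replicate 1, and siCtrl libraries often lay between. Where lists turn on this, they are also given by pair or with a pair left out. Reads on nuclear pseudogenes of mitochondrial genes took 2.48% and 2.25% of the counts in sip53 libraries and 4.85% and 5.51% in siCtrl libraries. The part of this share in the other differences was not tested.

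Transfection with p53 siRNA was followed by a broad change in NCI-H2087. With libraries of the same replicate number treated as a pair, 4571 genes were called by edgeR (quasi-likelihood test, adjusted p below 0.05), of which 2298 (12.8% of those tested) rose and 2273 (12.6%) fell. Of the called genes, 811 were at least 2-fold higher and 950 at least 2-fold lower, and 204 and 284 differed at least 4-fold. Without the pairing the number was 1560, with 896 rises (4.98%) and 664 falls (3.69%), and each of them was also among the 4571. With pair 1 left out 3546 genes were called, and with pair 2 left out 2388 were called, 1317 higher and 1071 lower. A fit with a pair left out, here and below, holds no replicate of NCI-H2087, and its spread comes from NCI-H441. Its counts therefore do not measure the spread in NCI-H2087. The balance of rises and falls depends on the scaling. With library totals in place of TMM factors the median of all tested genes moved to -0.22 from -0.04 on the log2 scale, and 1517 genes were called higher against 3749 lower. DESeq2 with the pairing called 1758 higher and 1149 lower. Both sip53 libraries lay above both siCtrl libraries in 4573 of the 17978 tested genes and below both in 5468. The arms did not overlap in 4392 of the 4571 called genes, so a lack of overlap adds little to a call.

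**Figure D1:**
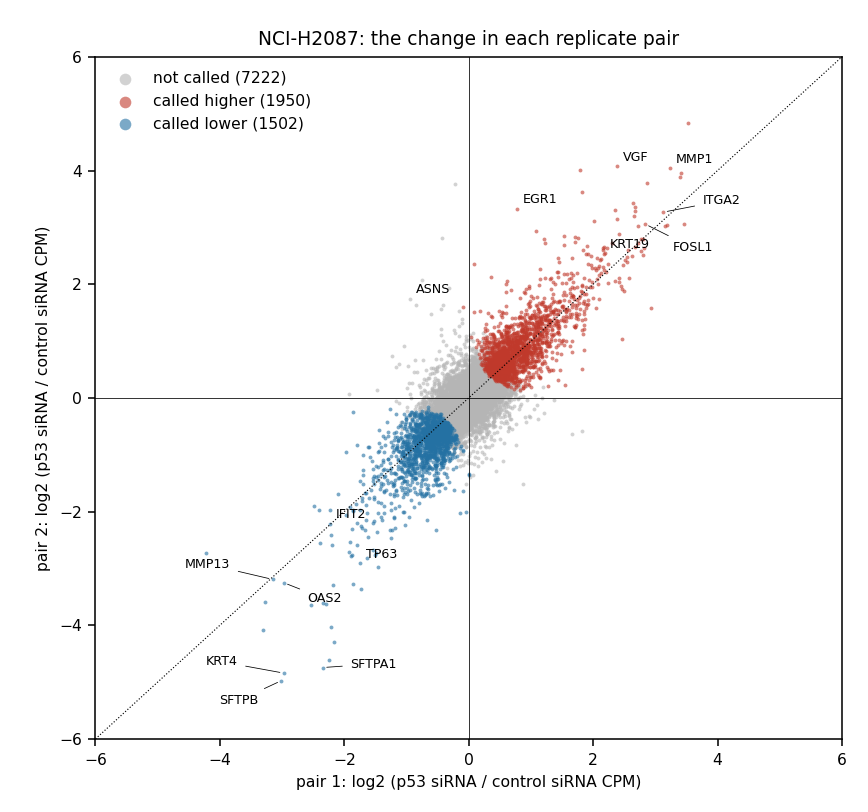
Each point is 1 of 10674 genes with a mean of at least 5 CPM in NCI-H2087, with the log2 ratio of p53 siRNA over control siRNA in replicate pair 1 on the x axis and in pair 2 on the y axis. Genes called higher (red, 1950) and lower (blue, 1502) lie near the dotted line of equal change, while ASNS and EGR1 lie far above it and SFTPA1 and KRT4 below it.

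The largest rises included several secreted or surface proteins. DHRS9, a short-chain dehydrogenase that acts on retinoids and steroids, stood at 33.2 and 33.6 CPM in sip53 cells, against 3.04 and 2.07 CPM in siCtrl cells (log2 fold change 3.73 ± 0.20 SE). TMCC3, a protein of the endoplasmic reticulum, had 26.3 and 25.4 CPM in sip53 cells and 2.32 and 2.98 CPM in siCtrl cells. SPOCD1 had 25.4 and 49.0 CPM in sip53 cells and 3.4 and 3.47 CPM in siCtrl cells. In each of these 3 genes both sip53 libraries lay above both siCtrl libraries by several fold. Arms that did not overlap were a condition for naming a gene by size. VGF, which encodes a secreted neuropeptide precursor, reached 5.17 and 36.8 CPM in sip53 cells against 0.928 and 2.11 CPM in siCtrl cells, a log2 ratio of 2.38 in pair 1 and 4.07 in pair 2. POLR2J2, an RNA polymerase subunit gene whose near-identical copies could share its reads, had 14.8 and 15.7 CPM against 1.34 and 0.980 CPM. The noncoding RNAs LINC00880, LINC00707 and LINC00973 rose by 3.18 ± 0.27, 3.08 ± 0.36 and 3.06 ± 0.23 on the log2 scale, and ENSG00000132130, which has no symbol in the tables used, rose by 4.27 ± 0.27.

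Among abundant genes, those with a mean of at least 200 CPM, the largest rises were in ITGA2, PLAU, FLNC, FOSL1, DUSP5, PHLDA1, CLDN12 and RAB3B. FLNC, a filamin that cross-links actin, had 284 and 704 CPM in sip53 cells and 44.5 and 68.6 CPM in siCtrl cells (3.02 ± 0.18). CLDN12, a claudin of cell junctions, had 525 and 598 CPM in sip53 cells and 92.4 and 112 CPM in siCtrl cells (2.46 ± 0.14). RAB3B, a small GTPase of secretory vesicles, had 242 and 443 CPM against 53.9 and 73.1 CPM (2.38 ± 0.15). The 2 sip53 values of FLNC and RAB3B differed between replicates more than those of CLDN12. Arms that did not overlap were again a condition for naming these 3 genes. The largest falls among abundant genes were in KRT4, SFTPA1, ADGRF5, PEG10, ADGRF1, SFTA3, MTCO2P2 and MEGF9. ADGRF5, an adhesion receptor that in mice is needed for surfactant balance, had 59.6 and 33.6 CPM in sip53 cells and 345 and 423 CPM in siCtrl cells (-3.09 ± 0.21). PEG10, an imprinted gene derived from a retrotransposon, had 978 and 657 CPM in sip53 cells and 3381 and 3033 CPM in siCtrl cells (-2.0 ± 0.14). MTCO2P2 is a pseudogene of a mitochondrial gene, and its 223 and 155 CPM against 578 and 445 CPM moved with the share of mitochondrial pseudogene reads given above. Among less abundant genes, large falls included C16orf89 (2.44 and 1.44 CPM against 24.8 and 25.7 CPM), ENPP2, which encodes the secreted lysophospholipase autotaxin (1.28 and 1.77 CPM against 13.2 and 22.2 CPM), and STEAP4, a metalloreductase (2.39 and 1.18 CPM against 11 and 24.8 CPM).

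Most genes of the plasminogen system rose. Of 14 measured members of the plasminogen system list 9 rose and 2 fell in sip53 cells, with a median log2 fold change of 0.73, against -0.04 over all genes tested and the 12.8% and 12.6% called in each direction. Without the pairing 5 rose and 1 fell, and with each pair alone 8 rose and 1 fell. PLAU, which encodes urokinase, had 1237 and 1361 CPM in sip53 cells and 138 and 167 CPM in siCtrl cells (3.09 ± 0.14, adjusted p = 5.31e-09 by edgeR). Both sip53 libraries were far above both siCtrl libraries. The tissue activator PLAT had 418 and 494 CPM in sip53 cells against 124 and 188 CPM in siCtrl cells, and the urokinase receptor PLAUR had 157.7 and 176 CPM against 94.4 and 105 CPM. ANXA2, a plasminogen receptor at the cell surface, had 3242 and 2484 CPM in sip53 cells and 868 and 796 CPM in siCtrl cells (1.77 ± 0.13).

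Among integrins and matrix proteases, ITGA2 and MMP1 rose and MMP13 fell. Of 19 measured integrin genes 5 rose (26.3%, against 12.8% of all genes) and 2 fell, with a median of 0.40 against -0.04 over all genes, and 15 of 19 had a positive change. ITGA2, the collagen-binding alpha subunit, had 1229 and 1604 CPM in sip53 cells and 140 and 166 CPM in siCtrl cells (3.20 ± 0.15). ITGA6 and its partner ITGB4, which bind laminin, rose by 1.11 ± 0.16 and 0.97 ± 0.15, ITGA3 rose by 0.99 ± 0.15, and ITGB6 rose by 1.10 ± 0.16. ITGAV fell by 0.47 ± 0.15. ITGB1, the partner of ITGA2, had 380 and 393 CPM in sip53 cells and 349 and 354 CPM in siCtrl cells, and was not called. Of 15 measured matrix metalloproteinases and their inhibitors 4 rose (26.7%) and 1 fell (6.67%, against 12.6% of all genes), with a median of 0.32. The interstitial collagenase MMP1 had 160 and 240 CPM in sip53 cells against 17.0 and 14.6 CPM in siCtrl cells, and the collagenase MMP13 had 1.79 and 1.65 CPM against 16.6 and 15.8 CPM. Both collagenase genes had arms that did not overlap, and they changed in opposite directions, MMP1 by 3.65 ± 0.22 and MMP13 by -3.23 ± 0.21. The membrane protease MMP14 rose by 1.25 ± 0.14. Of 45 laminin and matrix genes 7 rose (15.6%, against 12.8% of all genes) and 8 fell (17.8%, against 12.6%), or 2 and 2 without the pairing. Tenascin TNC had 206 and 231 CPM in sip53 cells against 67.4 and 78.8 CPM in siCtrl cells. Fibrillin FBN1 had 13.6 and 12.3 CPM against 50.1 and 61.4 CPM.

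Targets and feedback inhibitors of the ERK cascade rose in NCI-H2087. Of 30 measured members 18 rose (60%, against 12.8% of all genes) and 1 fell, with a median of 0.85 against -0.04. Without the pairing 8 rose and 0 fell in edgeR, with 1 lower at an unadjusted p below 0.05, and with pair 1 or pair 2 left out 16 and 15 rose. The dual-specificity phosphatase DUSP5, which acts on ERK in the nucleus, had 254 and 458 CPM in sip53 cells and 48.8 and 51.4 CPM in siCtrl cells (2.77 ± 0.17). DUSP1, a nuclear MAP kinase phosphatase, had 27.4 and 42.5 CPM in sip53 cells and 11.8 and 13.8 CPM in siCtrl cells. ERRFI1, a direct inhibitor of EGFR, had 3877 and 6485 CPM in sip53 cells and 932 and 1177 CPM in siCtrl cells (2.26 ± 0.14). PHLDA1, a pleckstrin-homology-like protein induced by growth factors, had 602 and 825 CPM against 113 and 112 CPM (2.65 ± 0.15). In these 4 genes the arms did not overlap and replicate 2 was the higher sip53 library. IER3, an early gene, had 69.2 and 142 CPM in sip53 cells and 10.8 and 14.5 CPM in siCtrl cells. SPRY1, a Sprouty feedback inhibitor, was the member that fell, with 12.8 and 9.93 CPM in sip53 cells and 17.3 and 23.3 CPM in siCtrl cells, while the Sprouty genes SPRY2 and SPRY4 rose by 0.70 ± 0.14 and 1.47 ± 0.20. EGR1, an early zinc finger factor, had 29.2 and 215 CPM in sip53 cells and 17.0 and 21.4 CPM in siCtrl cells, a log2 ratio of 0.78 in pair 1 and 3.32 in pair 2.

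**Figure D2:**
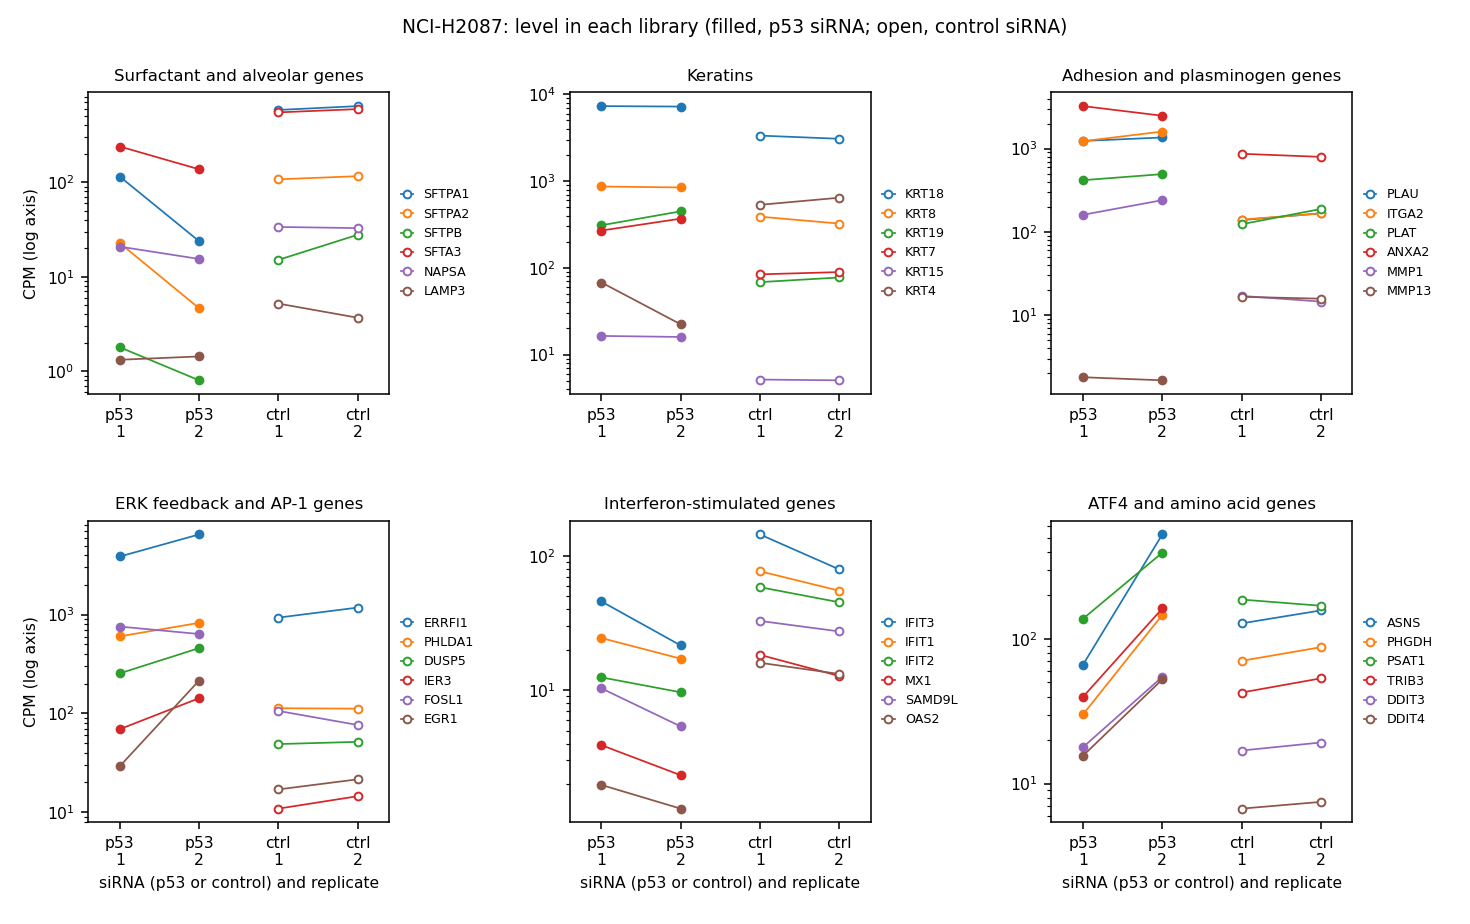
Level in CPM (log axis) of 6 named genes in each panel in the 4 NCI-H2087 libraries, with p53 siRNA (filled) left of control siRNA (open) and replicates 1 and 2 joined by a line within each siRNA. PLAU lies at 1237 and 1361 CPM in the p53 siRNA libraries and at 138 and 167 CPM in the control libraries, while ASNS is at 66.5 and 529 CPM in the p53 siRNA libraries on either side of its 128 and 157.5 CPM in the control libraries.

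Upstream and downstream of ERK the changes went in both directions. Of 9 measured EGFR ligands 2 rose (22.2%, against 12.8% of all genes) and 1 fell (11.1%, against 12.6%), with a median of -0.11. Amphiregulin, AREG, had 226 and 307 CPM in sip53 cells and 106 and 98.5 CPM in siCtrl cells, and epiregulin, EREG, had 750 and 667 CPM against 396 and 351 CPM. EGF had 4.27 and 5.11 CPM in sip53 cells and 9.38 and 19.3 CPM in siCtrl cells, a fall of 1.55 ± 0.21. Of 36 receptor kinases 6 rose (16.7%) and 7 fell (19.4%), or 4 and 3 without the pairing. AXL, a receptor for GAS6, had 106 and 146 CPM in sip53 cells and 24.4 and 27 CPM in siCtrl cells (2.28 ± 0.16), and the ephrin receptor EPHA2 had 55.4 and 69.6 CPM against 24.9 and 24.4 CPM. ERBB4, which binds neuregulins, had 0.342 and 1.69 CPM in sip53 cells and 7.84 and 11.7 CPM in siCtrl cells. Of 19 AP-1 genes 7 rose (36.8%) and 4 fell (21.1%), with a median of 0.23. FOSL1, the AP-1 subunit FRA-1, had 756 and 636 CPM in sip53 cells and 106 and 76.3 CPM in siCtrl cells (2.95 ± 0.15). JUN had 120 and 122 CPM in sip53 cells against 51.0 and 53 CPM in siCtrl cells, and JDP2, a repressor of AP-1, fell by 1.23 ± 0.19. Without the pairing 3 AP-1 genes rose and 1 fell.

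Promoter sequence was searched for the AP-1 letters TGANTCA in the 250 bases before each start in RefSeq (GRCh38.p14), on both strands, which read alike. Among 12238 tested genes with a promoter there, 6.54% held the letters, against 9.35% of 1701 genes that rose and 5.41% of 1608 genes that fell. Within the lists no such order was seen throughout: the letters were held by 2 of 10 annexin and S100 genes that rose and 3 of 14 not called, by 1 of 11 ERK genes that rose and 2 of 10 not called, and by 3 of 7 plasminogen genes that rose and 1 of 3 not called. No integrin, keratin or metalloproteinase gene that rose held them, of 3, 2 and 2 with a promoter entry. Among the annexin, S100 and plasminogen genes that rose, S100A2 (at 1 of its 2 starts), ANXA2 and PLAUR are shown because they hold the letters, in capitals, with 14 bases on each side.
S100A2: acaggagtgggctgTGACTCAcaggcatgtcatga
ANXA2: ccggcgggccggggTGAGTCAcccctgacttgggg
PLAUR: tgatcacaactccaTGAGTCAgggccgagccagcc
The S100A2 window is chr1:153565876-153565910, the ANXA2 window chr15:60398093-60398127 and the PLAUR window chr19:43670335-43670369, each read on the minus strand. The letters end 45, 120 and 179 bases before the start in S100A2, ANXA2 and PLAUR. Their log2 fold changes were 2.14, 1.77 and 0.74. Such a match is a description of the letters and not a measured binding site.

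Annexins and S100 proteins, calcium-binding proteins of membranes and the cell periphery, had 26 measured members. Of these 10 rose (38.5%, against 12.8% of all genes) and 1 fell, with a median of 0.20 against -0.04, and 6 rose and 0 fell without the pairing. S100A2 had 64.7 and 67.4 CPM in sip53 cells and 17.1 and 13.2 CPM in siCtrl cells. S100A16 had 515 and 470 CPM in sip53 cells and 145 and 120 CPM in siCtrl cells (1.90 ± 0.13). In both genes the replicates lay close together beside the distance between the arms. S100A6 and S100A11 rose by 0.81 ± 0.12 and 0.93 ± 0.13. Of 34 YAP targets and actin-linked genes 16 rose (47.1%) and 5 fell (14.7%), or 9 and 0 without the pairing, with a median of 0.36. The coactivators themselves rose, with YAP1 at 341 and 334 CPM against 172 and 165 CPM and WWTR1 at 478 and 442 CPM against 194 and 176 CPM. The filamin FLNA rose by 1.12 ± 0.14, and zyxin, ZYX, by 1.35 ± 0.15.

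Genes of the alveolar type 2 cell fell. Of 14 measured members of the surfactant list 13 fell (92.9%, against 12.6% of all genes) and 0 rose, with a median of -1.70. At an unadjusted p below 0.05 in edgeR, or by DESeq2 and limma-voom, 0 were higher. Among the 10 members with a mean of at least 1 CPM the median was -1.32, against -0.01 over 13436 such genes, and 0 of these 10 had a positive change. SFTPB, which encodes surfactant protein B, had 1.79 and 0.803 CPM in sip53 cells and 15.1 and 27.8 CPM in siCtrl cells (-3.99 ± 0.33). SFTPA1, for surfactant protein A, had 115 and 23.8 CPM in sip53 cells and 584 and 641 CPM in siCtrl cells (-3.52 ± 0.38), and SFTPA2, its close paralog, which can share reads with it, had 22.7 and 4.65 CPM against 108 and 116 CPM. The sip53 libraries of the SFTPA genes were far apart, with replicate 2 much the lower, yet both lay below both siCtrl libraries. SFTA3, a surfactant-associated transcript next to NKX2-1, had 239 and 137 CPM in sip53 cells and 550 and 596 CPM in siCtrl cells. NAPSA, the protease that processes surfactant protein B, had 20.9 and 15.5 CPM against 33.7 and 32.8 CPM, and LAMP3, of the lamellar body, had 1.32 and 1.44 CPM against 5.21 and 3.69 CPM. Without the pairing 6 members fell, and with pair 2 left out 7 fell, against 11 with pair 1 left out. In bulk RNA, fewer cells that express a gene and less of its RNA per cell cannot be told apart.

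The lung lineage factors moved in both directions. Of 25 measured members 7 rose (28%, against 12.8% of all genes) and 6 fell (24%, against 12.6%), or 2 and 2 without the pairing. NKX2-1, the lung lineage factor that activates surfactant genes, had 245 and 180 CPM in sip53 cells and 321 and 338 CPM in siCtrl cells (-0.65 ± 0.15), a fall that was called with the pairing and not without it (adjusted p = 0.00445 and 0.151 by edgeR). CEBPD, a factor of lung epithelium, fell by 1.69 ± 0.17 and SOX2, a factor of proximal airway, by 1.85 ± 0.23. SOX9, a factor of the distal lung bud, had 9.62 and 7.27 CPM in sip53 cells and 1.19 and 2.38 CPM in siCtrl cells, and SPDEF, a factor of goblet cells, had 11.4 and 7.94 CPM against 2.06 and 1.77 CPM. Of 25 mucin and secretory genes 5 fell (20%, against 12.6% of all genes) and 0 rose, or 3 and 0 without the pairing. The list median was -0.94 with pair 1 left out and -0.006 with pair 2 left out. Among those that fell was the adhesion molecule CEACAM6, at 1306 and 791 CPM against 2007 and 1841 CPM. Another was the secretory disulfide isomerase AGR2, at 110 and 58.6 CPM against 216 and 124 CPM. MUC15 was at 0 in both sip53 libraries and at 0.464 and 0.528 CPM in siCtrl libraries.

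Keratins of simple epithelium rose while a keratin of stratified epithelium fell. Of 18 measured keratins 6 rose (33.3%, against 12.8% of all genes) and 2 fell (11.1%, against 12.6%), or 5 and 2 without the pairing. KRT18 had 7325 and 7238 CPM in sip53 cells and 3348 and 3077 CPM in siCtrl cells, and its partner KRT8 had 867 and 845 CPM against 389 and 324 CPM. KRT19 had 310 and 448 CPM in sip53 cells and 68.5 and 77.5 CPM in siCtrl cells (2.36 ± 0.15), and KRT7 had 269 and 369 CPM against 84.2 and 89.4 CPM. KRT4, of stratified mucosa, had 67.8 and 22.4 CPM in sip53 cells and 533 and 643 CPM in siCtrl cells (-3.89 ± 0.31). KRT15, a basal keratin, rose by 1.66 ± 0.18, while the basal cell factor TP63 had 2.09 and 1.69 CPM in sip53 cells and 7.22 and 13.3 CPM in siCtrl cells. KRT5 and DSG3, 2 further basal markers, were at 0 in all 4 libraries.

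Regulators of the epithelial state moved to both sides. Of 13 measured regulators and markers of epithelial to mesenchymal transition 3 rose (23.1%, against 12.8% of all genes) and 4 fell (30.8%, against 12.6%). The grainyhead factor GRHL1 had 18.9 and 17.7 CPM in sip53 cells and 86.3 and 107 CPM in siCtrl cells (-2.39 ± 0.15), and GRHL2 and OVOL2, which maintain epithelium, fell by 1.05 ± 0.17 and 1.14 ± 0.19. SNAI2, a repressor of epithelial genes, had 21.5 and 14.3 CPM in sip53 cells and 5.88 and 6.14 CPM in siCtrl cells. Vimentin, VIM, a mesenchymal filament, had 2932 and 3407 CPM in sip53 cells and 1332 and 1672 CPM in siCtrl cells. E-cadherin, CDH1, had 206 and 126 CPM in sip53 cells and 82.5 and 90.0 CPM in siCtrl cells, and it rose by 0.90 ± 0.17, a call that was lost with pair 1 left out. Junction genes divided evenly, with 8 of 34 rising and 8 falling (23.5% each), or 4 and 1 without the pairing. Occludin, OCLN, fell by 0.87 ± 0.14, and the adhesion molecule NECTIN1 had 9.57 and 10.2 CPM against 1.55 and 1.62 CPM.

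**Figure D3:**
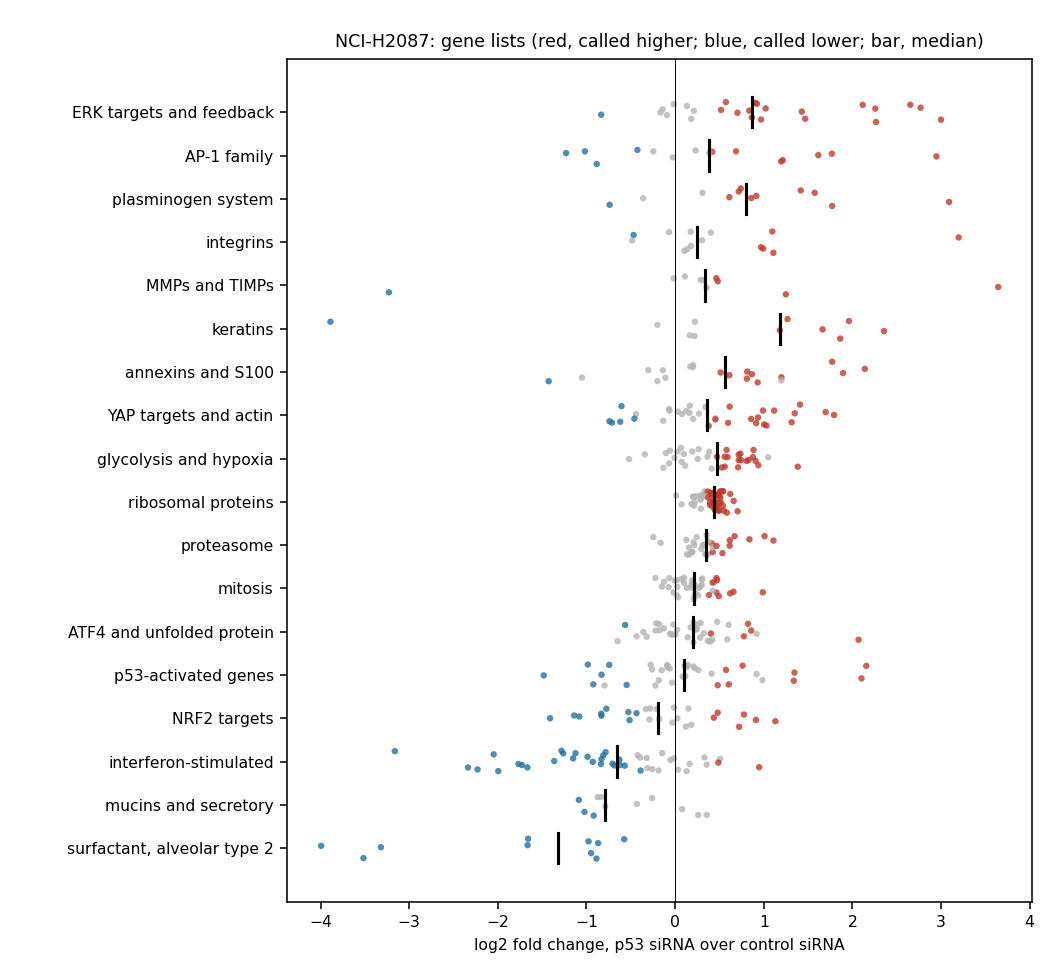
The log2 fold change of p53 siRNA over control siRNA (x axis) for members of 18 gene lists (rows) with a mean of at least 1 CPM in NCI-H2087, coloured by call, with a bar at the median of those members. The bar lies at 0.87 for ERK targets and at -1.32 for the surfactant list, and the median of all genes of this level is -0.01.

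Interferon-stimulated genes fell in NCI-H2087. Of 46 measured members 29 fell (63.0%, against 12.6% of all genes) and 2 rose, with a median of -0.75 against -0.04, and without the pairing 20 fell and 0 rose in edgeR, with 1 higher at an unadjusted p below 0.05. With pair 1 or pair 2 left out 24 and 22 fell. IFIT2, whose product binds RNA and restrains translation, had 12.4 and 9.63 CPM in sip53 cells and 58.4 and 45.1 CPM in siCtrl cells (-2.23 ± 0.17). IFIT1 had 24.4 and 17.1 CPM in sip53 cells against 76.7 and 55.0 CPM in siCtrl cells, and IFIT3 had 45.7 and 21.5 CPM against 144 and 79.3 CPM. Replicate 1 was higher than replicate 2 under both siRNAs in these genes, and the arms did not overlap. OAS2, a sensor of double-stranded RNA, had 1.97 and 1.31 CPM in sip53 cells and 16 and 13.2 CPM in siCtrl cells (-3.16 ± 0.24), and the GTPase MX1 had 3.89 and 2.32 CPM against 18.3 and 12.7 CPM. The fall did not extend to every member. EIF2AK2, a kinase that double-stranded RNA activates, had 86.3 and 75.5 CPM in sip53 cells and 87.6 and 71.0 CPM in siCtrl cells, and was not called. IFITM3, a membrane restriction factor, had 224 and 243 CPM against 176 and 246 CPM and was not called, and IFITM2 and ISG20 rose.

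Sensors of foreign RNA, which transfected siRNA can engage, were also examined. Of 8 measured sensors and adaptors 2 fell (25%, against 12.6% of all genes) and 0 rose. Without the pairing 0 were called by edgeR, with 2 lower at an unadjusted p below 0.05. DESeq2 and limma-voom with the pairing called 1 lower each. RIGI had 18.4 and 12.5 CPM in sip53 cells and 28.6 and 25.5 CPM in siCtrl cells, and TLR3 had 0.727 and 1.06 CPM against 2.17 and 1.85 CPM. IFIH1 and the adaptor MYD88 were not called. Among 12 genes of the RNA interference machinery AGO2, the slicer, rose by 1.01 ± 0.15 and no other member was called by the paired fit. Whether the 2 siRNAs engaged these sensors differently was not tested. Of 23 genes of class I antigen presentation 6 rose (26.1%, against 12.8% of all genes) and 2 fell (8.7%, against 12.6%). In edgeR without the pairing the counts were 0 and 1. HLA-B had 56.0 and 59.2 CPM in sip53 cells against 27.4 and 33.8 CPM in siCtrl cells.

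The promoters of the interferon list were searched for the core of the interferon-stimulated response element, GAAA, any 2 bases and GAAA again, on both strands of the same RefSeq windows. The letters were held by 24 of 36 members that have a promoter entry, against 3.42% of the tested genes. They were held by 15 of 24 members that fell and by 8 of 11 that were not called. The windows show 5 genes that fell and IFITM3, which was not called, each on the strand of its gene. Capitals mark only the match nearest the start, as the letters or their reverse complement. Each of these promoters held 2 matches, or 3 in IFI6. A further match can lie in the lower-case letters, as in IFIT1 and, overlapping the capitals, in ISG15.
IFIT1: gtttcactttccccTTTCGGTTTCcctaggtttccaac
IFIT3: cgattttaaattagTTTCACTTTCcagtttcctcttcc
IFI6: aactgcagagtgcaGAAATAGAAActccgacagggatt
OAS3: ggagagccgggcggGAAAACGAAAcc
ISG15: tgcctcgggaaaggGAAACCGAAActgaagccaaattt
IFITM3: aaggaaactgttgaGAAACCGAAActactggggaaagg
The ISG15 and IFITM3 letters in capitals are the same 10 bases, and the log2 fold changes were -0.71 in ISG15 and 0.16 in IFITM3. The windows are chr10:89392506-89392543 on the plus strand for IFIT1, chr10:89327861-89327898 on the plus strand for IFIT3, chr1:27672262-27672299 on the minus strand for IFI6, chr12:112938448-112938473 on the plus strand for OAS3, chr1:1013376-1013413 on the plus strand for ISG15 and chr11:320872-320909 on the minus strand for IFITM3.

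Inflammatory mediators changed in both directions. Of 37 cytokine genes 6 rose (16.2%, against 12.8% of all genes) and 9 fell (24.3%, against 12.6%), with 3 and 3 called without the pairing. Of 25 NF-kB genes 4 rose (16%) and 2 fell (8.0%), shares near those of all genes. The chemokine CXCL1 had 1.28 and 1.14 CPM in sip53 cells and 6.34 and 5.96 CPM in siCtrl cells (-2.34 ± 0.24), and CXCL3 had 1.54 and 1.44 CPM against 3.92 and 3.81 CPM. TNFAIP3, which ends NF-kB signalling, had 118 and 114 CPM in sip53 cells and 27.7 and 23.3 CPM in siCtrl cells (2.19 ± 0.14), while NFKBIA, the inhibitor that holds NF-kB in the cytoplasm, fell by 0.87 ± 0.15. ICAM1, an adhesion molecule, had 43.9 and 38 CPM against 82.4 and 88.9 CPM. Of 4 measured immune or endothelial markers 1 rose and 1 fell (25% each), or 1 and 0 without the pairing. The marker that rose was CD68, a lysosomal protein used as a macrophage marker. CD68 had 257 and 363 CPM in sip53 cells and 113 and 134 CPM in siCtrl cells, while TYROBP was at 0 in all 4 libraries.

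Genes that wild-type p53 activates went both ways. Of 38 measured members 8 rose (21.1%, against 12.8% of all genes) and 6 fell (15.8%, against 12.6%), with a median of 0.03. Without the pairing 4 rose and 2 fell. With library totals 5 rose and 9 fell, and the median was -0.15. CDKN1A, the p21 inhibitor of cell cycle kinases, had 78.7 and 101 CPM in sip53 cells and 20.2 and 19.8 CPM in siCtrl cells (2.16 ± 0.16). GADD45A, a stress gene of growth arrest, had 59.5 and 66.7 CPM in sip53 cells and 25.7 and 24.2 CPM in siCtrl cells, and PLK3 had 10.8 and 15.5 CPM against 3.35 and 2.75 CPM. The death effector PMAIP1 had 26.1 and 25.1 CPM in sip53 cells and 13.2 and 7.65 CPM in siCtrl cells, and SUSD6 had 11.3 and 13 CPM against 21.8 and 26.3 CPM. In each of these genes the arms did not overlap. MDM2, the ubiquitin ligase of p53, had 150 and 106 CPM in sip53 cells and 80.3 and 68.7 CPM in siCtrl cells (0.76 ± 0.14), a call that was not made without the pairing (adjusted p = 0.118 by edgeR).

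Housekeeping programs moved by smaller amounts. Their shares of rises stand against 12.8% of all genes and their medians against -0.04. Of 39 genes of glycolysis and hypoxia 18 rose (46.2%) and 0 fell, against 9 and 0 without the pairing, with a median of 0.47. GAPDH had 5690 and 4536 CPM in sip53 cells and 2873 and 2635 CPM in siCtrl cells, and PKM, the pyruvate kinase, had 2114 and 1349 CPM against 993 and 816 CPM. HIF1A, the oxygen-regulated factor, had 2089 and 1952 CPM against 1171 and 1244 CPM, and NDRG1 had 183 and 150 CPM against 70.8 and 57.0 CPM. At an unadjusted p below 0.05 in edgeR 1 member of this list was lower, and DESeq2 and limma-voom called 0 lower. The median in pair 1 was 0.60 and in pair 2 it was 0.21, and with pair 1 left out 10 members rose. Of 55 ribosomal protein genes 39 rose (70.9%) and 0 fell, with a median of 0.44 and a positive change in all 55. Only 1 of them was called without the pairing, 2 with pair 2 left out and 7 with library totals. RPS4X had 2871 and 3177 CPM in sip53 cells and 1967 and 1957 CPM in siCtrl cells. Of 30 proteasome genes 10 rose (33.3%) and 0 fell, or 4 and 0 without the pairing, with PSMD2 at 453 and 453 CPM against 225 and 196 CPM. Of 40 mitosis genes 9 rose (22.5%) and 0 fell, or 1 and 0 without the pairing, with a median of 0.21. This list depends on single libraries: 3 rose with pair 1 left out and 4 with pair 2 left out, and 3 rose with library totals, at a median of 0.04. Without the pairing, the median was -0.24 with sip53 replicate 1 left out, when 6 of 40 members had a positive change, and 0.58 with sip53 replicate 2 left out, when all 40 did. It was 0.59 with siCtrl replicate 1 left out and -0.02 with siCtrl replicate 2 left out. Replicate 1 was the higher library under both siRNAs for UBE2C, a ubiquitin-conjugating enzyme of mitosis, with 1089 and 468 CPM in sip53 cells and 460 and 281 CPM in siCtrl cells. In the ribosomal, proteasome and mitosis lists 0 members were lower at an unadjusted p below 0.05 in edgeR, or called lower by DESeq2 or limma-voom.

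Other metabolic and stress lists were mixed. Of 26 NRF2 targets 6 rose (23.1%, against 12.8% of all genes) and 9 fell (34.6%, against 12.6%), or 1 and 2 without the pairing. FTL, the ferritin light chain, had 4836 and 7887 CPM in sip53 cells and 2699 and 2946 CPM in siCtrl cells. GCLC, of glutathione synthesis, had 278 and 258 CPM against 508 and 632 CPM. Of 45 sterol and fatty acid genes 8 rose (17.8%) and 10 fell (22.2%), or 6 and 0 without the pairing. The elongase ELOVL6 had 68.1 and 69.0 CPM against 25.6 and 26.6 CPM. Of 23 genes of aryl hydrocarbon and retinoid response 3 rose and 6 fell. DHRS3, a retinal reductase, had 3.98 and 3.68 CPM in sip53 cells and 14.8 and 25.4 CPM in siCtrl cells, opposite in direction to DHRS9.

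The 2 pairs disagreed on amino acid synthesis. Of 38 genes of the ATF4 and unfolded protein lists 5 rose (13.2%) and 1 fell (2.63%), or 1 and 0 without the pairing. The share that rose was near the 12.8% of all genes, and 12.6% of all genes fell. The ratio was positive for 14 of the 38 in pair 1 and for 31 in pair 2. The median of this list was -0.17 in pair 1 and 0.40 in pair 2. Asparagine synthetase, ASNS, had 66.5 and 529 CPM in sip53 cells and 128 and 157.5 CPM in siCtrl cells, so the 2 sip53 libraries lay on either side of both siCtrl libraries. The serine synthesis gene PHGDH had 30.1 and 147 CPM in sip53 cells and 70.6 and 87.7 CPM in siCtrl cells, and PSAT1 had 138 and 396 CPM against 187 and 170 CPM. TRIB3, a pseudokinase induced by ATF4, had 39.8 and 162 CPM in sip53 cells and 42.6 and 53.4 CPM in siCtrl cells, and DDIT4, an inhibitor of mTOR, had 15.6 and 52.5 CPM against 6.70 and 7.46 CPM, a log2 ratio of 1.21 in pair 1 and 2.80 in pair 2. ASNS, PHGDH, PSAT1 and EGR1 were singled out after their values were seen, by the distance between the pairs. Of these, only EGR1 was called. NAMPT, which makes an NAD precursor, and the scaffold AKAP12, chosen in the same way, rose and were higher in both pairs, by different amounts: NAMPT had 644 and 1861 CPM in sip53 cells and 222 and 258 CPM in siCtrl cells, and AKAP12 had 45 and 211 CPM against 12.7 and 17.0 CPM. Across 10675 genes with a mean of at least 5 CPM the log2 ratios of the 2 pairs correlated with r = 0.812, which describes genes of the same libraries and is no test.

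**Figure D4:**
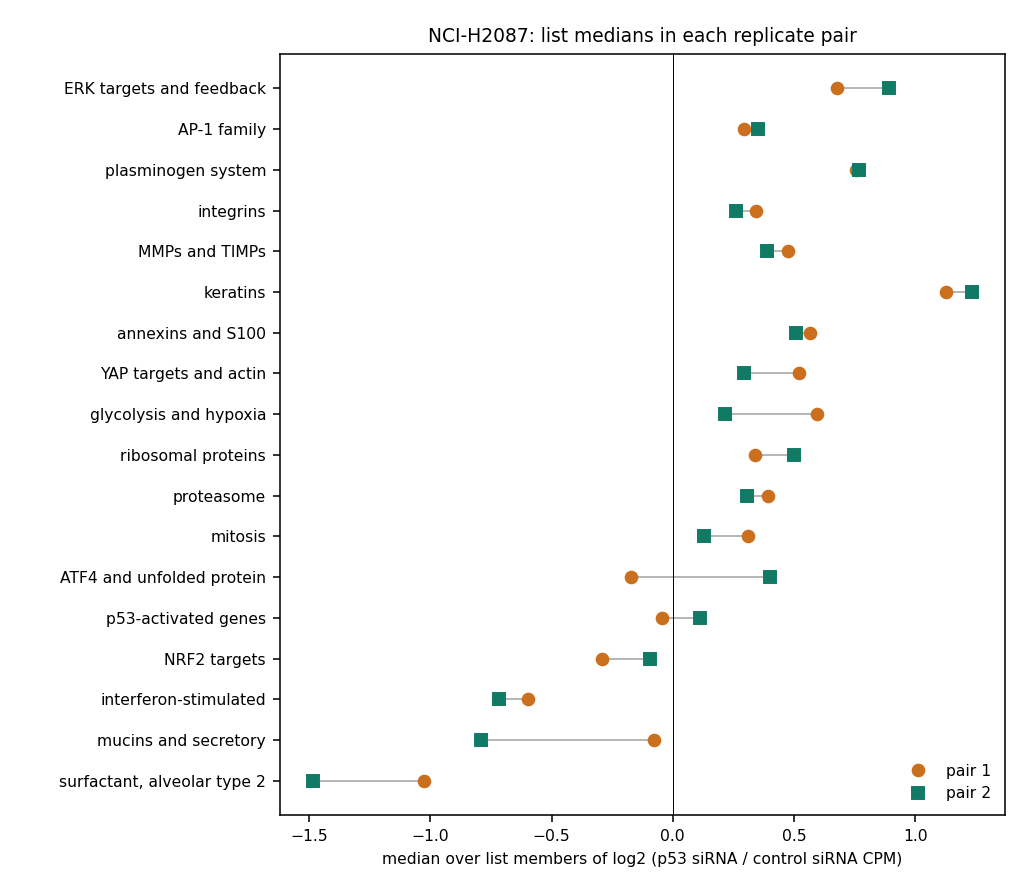
The median over members of each gene list (rows, members with a mean of at least 1 CPM) of the log2 ratio of p53 siRNA over control siRNA (x axis), for replicate pair 1 (circles) and pair 2 (squares). The ATF4 and unfolded protein list has -0.17 in pair 1 and 0.40 in pair 2, whereas the plasminogen list has 0.76 and 0.77.

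The change in NCI-H2087 was set against that in NCI-H441, the other line with replicates, by testing the difference between the 2 log2 fold changes in the same fit. Of 17978 genes 1604 (8.92%) were called for the difference, 838 positive and 766 negative, and 74 without the pairing. PLAU had 660 and 1240 CPM in sip53 cells and 586 and 956 CPM in siCtrl cells of NCI-H441, a change of 0.27 ± 0.13 there, and the difference was 2.82 ± 0.18 (adjusted p = 2.1e-06 by edgeR). FOSL1 had 506 and 676 CPM in sip53 cells and 538 and 584 CPM in siCtrl cells of NCI-H441, and PHLDA1 had 428 and 403 CPM against 471 and 520 CPM. PLAU and FOSL1 were thus several fold higher in siCtrl cells of NCI-H441 than in siCtrl cells of NCI-H2087. ITGA2, DHRS9 and TMCC3 were the other rises with the smallest p for the difference. KRT4 had 170 and 145 CPM in sip53 cells and 162 and 125 CPM in siCtrl cells of NCI-H441 (0.14 ± 0.27), and GRHL1 had 92.9 and 74.5 CPM against 100 and 80.6 CPM. MMP13, OAS2, PEG10 and CYB5A, a cytochrome that donates electrons to lipid enzymes, were the other falls of this kind. CYB5A had 33.3 and 24.6 CPM in sip53 cells and 126 and 143 CPM in siCtrl cells of NCI-H2087. By list, the difference was called in 20 of 46 interferon genes, all negative, in 12 of 14 surfactant genes, all negative, and in 11 of 30 ERK genes, all positive. It was called in 3 of 39 genes of glycolysis and hypoxia and in 1 of 55 ribosomal protein genes.

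**Figure D5:**
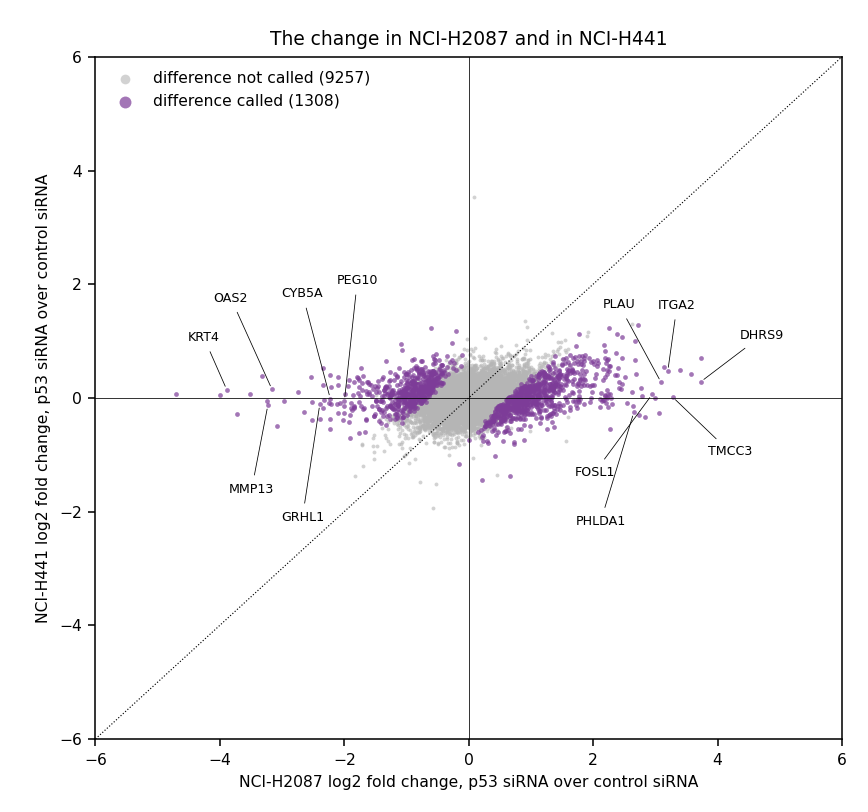
Log2 fold change of p53 siRNA over control siRNA in NCI-H2087 (x axis) and in NCI-H441 (y axis) for 10565 genes with a mean of at least 1 CPM in each line and 5 CPM over both, with purple points for the 1308 whose difference was called. PLAU, FOSL1, PHLDA1, ITGA2, DHRS9 and TMCC3 lie at the right and MMP13, GRHL1, OAS2, PEG10, CYB5A and KRT4 at the left, all near 0 on the y axis, and the dotted line marks equal change.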

How the data were processed

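The deposited table holds whole-number counts per gene for 57736 Ensembl IDs and is not normalized. The submitters' processing notes name Bowtie2, RSEM 1.2.12 and hg19 without their roles, and whether the counts are rounded estimates is not given in the sources used here. A Lexogen kit served for library preparation, per the labels' protocols. Symbols came from a names table (51959 IDs) and GENCODE (342), and 5435 IDs had none.

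The tests used edgeR 4.0.16 under R 4.3.3, with limma 3.58.1 and DESeq2 1.42.0 for alternatives. The filter was filterByExpr with 6 groups (each line with each siRNA), the genes kept hold 99.96% of the counts, and libraries were scaled by TMM. A quasi-likelihood model with 1 mean per line and replicate number and 1 siRNA effect per line used the 10 libraries together, which leaves 2 residual degrees of freedom (4 without the replicate block). The common biological coefficient of variation was 12.1%, and 19.8% without the block. Tests were two-sided with Benjamini-Hochberg adjustment over all tested genes. Standard errors derive from the F statistic, and CPM use TMM library sizes. The labels give only a shared replicate number, and the analysis treats it as a pairing. The difference between replicates correlated between the siRNAs with r = 0.534 in NCI-H2087 and 0.595 in NCI-H441 over 9332 genes. Libraries of 1 siRNA were not copies of each other (chi-square per gene 63.6 for sip53 and 21.3 for siCtrl). Libraries held 18336672 to 25810934 counts, which limits the precision of low genes most.

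Genes were named by rule: the 12 largest changes in each direction among called genes with a mean of at least 5 CPM and arms that do not overlap, up to 8 each at 200 CPM or more, up to 6 members of each of 38 lists with the smallest p, and up to 6 each for the difference from NCI-H441. Of the 1044 list entries 9 found no gene. Members and lists were chosen with earlier results of these data known, so lists are described by counts and medians, to be read against the shares and median of all genes, with no set test. Named after their values were seen were AKAP12, ASNS, EGR1, EIF2AK2, IFI6, IFITM2, IFITM3, ISG15, ISG20, ITGB1, NAMPT, OAS3, PHGDH, PSAT1, SPRY1, SPRY2, SPRY4 and those shown as promoter windows. Some genes that the rule gives are not reported here.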

Additional observations from a re-analysis of the deposited data

Results flagged for a closer look

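The change with p53 siRNA differed between NCI-H2087 and NCI-H441 by edgeR's test of the difference in 1604 genes with the pairing. The genes with the smallest p are given as the NCI-H2087 log2 fold change minus that of NCI-H441. The difference was 2.82 in PLAU, 2.89 in FOSL1, 2.91 in PHLDA1, 2.73 in ITGA2, 3.45 in DHRS9 and 3.26 in TMCC3. It was -3.10 in MMP13, -2.28 in GRHL1, -3.31 in OAS2, -1.95 in PEG10, -2.21 in CYB5A and -4.03 in KRT4. In each of these 12 genes both sip53 libraries of NCI-H2087 lay on the same side of both siCtrl libraries. That held for 4392 of the 4571 called genes, so it does not set these 12 apart. The difference was also called in each of them by edgeR without the pairing, with the highest adjusted p at 0.045 for CYB5A. Groups of 2 libraries are too small for a check of single outlying values.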

How the results depend on the processing

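With the replicate block 4571 genes were called in NCI-H2087, and without it 1560; for the difference from NCI-H441 the counts were 1604 and 74. DESeq2 with the block called 2907, of 13795 genes given an adjusted p. Left-out pairs gave 2388 to 3546 genes in NCI-H2087 and 1101 to 1976 for the difference, and single left-out libraries without the block gave 177 to 1103 and 0 to 92. The 0 came from edgeR without siCtrl replicate 1 or siCtrl replicate 2, where 1991 and 1349 genes had an unadjusted p below 0.05; no other tool was run on these. Total counts stayed within 1.5 times under size factors of DESeq2, library totals, both filters and limma-voom, and, for NCI-H2087, with its 4 libraries alone. Library totals moved the split from 2298 rises and 2273 falls to 1517 and 3749.

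Of 200 named genes called with the block, 163 kept their call with each pair alone, a fit whose spread comes from NCI-H441. A change of sign, as in TRIB3 with pair 2 left out, was not counted there as a lost call. The genes named by size or by the difference kept their calls in every fit with the block. Among the genes named by rule, TRIB3 changed sign with pair 2 left out (-0.09) and, without the block, with sip53 replicate 2 left out. Over all left-out libraries and pairs TRIB3 ranged from -0.27 to 1.76, DDIT3 from -0.017 to 1.6 and KIF11 from -0.21 to 1.15, with DDIT3 lowest without sip53 replicate 2 and KIF11 without sip53 replicate 1. The cause was not tested. With 2 libraries per siRNA, a gene that was not called is not shown to be equal.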
